A study of Mus musculus with 2 samples.

Results

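Chemokines and their receptors were examined in CD34-positive epithelial cells sorted from chemically induced mouse skin tumours, as a family of small secreted proteins that direct cell migration together with the membrane receptors that bind them. The set comprised every gene of the platform annotation named Ccl, Cxcl, Ccr, Cxcr, Ackr or Xcl with a number, together with Ppbp, Pf4 and Cx3cl1, provided that a probe set mapped to that gene alone. This gave 53 of the 18194 annotated genes, 35 ligands and 18 receptors, read by 84 probe sets. Another 4 probe sets named such a gene together with other genes and were not used.

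There were 2 samples, each of total RNA on 1 Affymetrix Mouse Genome 430 2.0 array, on which each probe set, a group of short oligonucleotides, reads mostly the end of a transcript next to the poly(A) tail. The first came from a wild-type mouse. The other came from a K14CreER:Rosa-VEGF-164 mouse, in which a Cre recombinase expressed from the keratin 14 promoter, and hence in basal epithelial cells, acts on a VEGF-164 transgene at the Rosa locus. CreER needs tamoxifen to act, and its administration is not given in the sources used here. Both groups carried tumours induced in the same way, with the carcinogen DMBA at postnatal days 23, 25 and 27, then the tumour promoter TPA for several weeks, and DMBA again at 7 weeks of age. The tumours were digested with collagenase and living cells were sorted with antibodies to CD34, α6-integrin and Epcam while CD45 (leukocytes), CD31 (endothelium) and CD140a (fibroblasts) were stained in another colour. The number of tumours or animals behind each RNA is not given in the sources used here.

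Chemokine ligands are grouped by the spacing of their first cysteines into CC, CXC, XC and CX3C classes, and CXC ligands with the residues Glu-Leu-Arg ahead of the cysteines attract neutrophils through Cxcr2. The receptors couple to inhibitory G proteins, except for the atypical receptors (Ackr), which bind and internalise ligands without that coupling. Epidermal keratinocytes make several of these ligands themselves, among them Cxcl1, Cxcl2, Ccl20, Ccl27a and Cxcl14, several of them under control of the transcription factor NF-κB in inflamed skin.

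Promoters of 4 of the 6 neutrophil-attracting ligands, without Cxcl5 and Cxcl15, are shown because 3 of these neighbouring genes share a motif while their ratios between the arrays, given below, differ. Each sequence is the 250 bases before the annotated start, from RefSeq, build GRCm38.p6, on the plus strand: chr5:90768268-90768517 for Ppbp, chr5:90785851-90786100 for Cxcl3, chr5:90890995-90891244 for Cxcl1 and chr5:90903649-90903898 for Cxcl2. Capitals mark the NF-κB-like motif GGGNNNTTCC, read on both strands with overlapping matches merged, and the TATA motif TATAAA, also read on both strands.
Ppbp: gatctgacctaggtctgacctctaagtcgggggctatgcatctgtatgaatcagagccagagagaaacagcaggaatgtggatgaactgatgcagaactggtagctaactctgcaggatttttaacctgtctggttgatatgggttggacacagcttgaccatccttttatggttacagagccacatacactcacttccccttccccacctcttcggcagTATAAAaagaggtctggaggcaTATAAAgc
Cxcl3: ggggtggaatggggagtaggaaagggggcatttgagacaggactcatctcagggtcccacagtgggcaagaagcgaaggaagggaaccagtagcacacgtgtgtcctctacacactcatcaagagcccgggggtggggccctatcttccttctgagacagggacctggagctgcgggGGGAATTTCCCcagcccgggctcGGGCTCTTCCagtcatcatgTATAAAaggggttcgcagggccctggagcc
Cxcl1: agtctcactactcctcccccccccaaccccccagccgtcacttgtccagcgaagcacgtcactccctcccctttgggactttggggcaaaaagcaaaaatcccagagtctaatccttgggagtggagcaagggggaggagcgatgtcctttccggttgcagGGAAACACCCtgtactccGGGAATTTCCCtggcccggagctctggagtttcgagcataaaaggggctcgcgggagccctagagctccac
Cxcl2: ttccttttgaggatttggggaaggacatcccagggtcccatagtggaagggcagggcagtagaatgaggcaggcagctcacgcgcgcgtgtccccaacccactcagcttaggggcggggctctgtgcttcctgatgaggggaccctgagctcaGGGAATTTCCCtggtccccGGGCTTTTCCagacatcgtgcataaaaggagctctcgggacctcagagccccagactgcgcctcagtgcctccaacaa

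The NF-κB-like motif was found before Cxcl3, Cxcl1 and Cxcl2, and each of them held the exact letters GGGAATTTCC, which begin 73 bases before the start of Cxcl3, 71 before that of Cxcl1 and 97 before that of Cxcl2. The motif was not found in the Ppbp window, which held TATAAA at 30 and at 8 bases before the start. Cxcl3 also held TATAAA at 30 bases before its start, and the window of Cxcl15, not printed here, held it at 27. Of all 32851 promoter windows of this length, 4.65% held the NF-κB-like motif and 12.4% held TATAAA. The table had windows for 40 of the 53 genes, 44 in all, and 9 of these windows (20.5%) held the NF-κB-like motif, those of Ccl1, Ccl9, Ccl20, Ccr3, Ccr6, Cxcl1, Cxcl2, Cxcl3 and Cxcl10. The AP-1 motif TGANTCA, which overlapped neither of the other motifs in the Ppbp window, was found 204 bases before the start of Ppbp and in 6.75% of all windows. Among the 44 windows of the set, 13 (29.5%) held TATAAA and 6 (13.6%) held TGANTCA, so the higher share was not particular to the NF-κB-like motif. These matches describe letters in the windows and not binding.

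Values are signals in arbitrary units, scaled by the submitters so that the trimmed mean is the same on both arrays. A background level was set on each array from 80 probe sets for odorant and pheromone receptors, most of which were assumed not to be expressed in these cells. This level was 19.8 for wild type and 11.3 under the VEGF label. Where 2 signals are given for a gene, the wild-type array comes first. The gene gained by design gave no check of the labels: Vegfa had signals of 804 and 397 by the brighter and 302 and 127 by the dimmer of its 2 probe sets, lower on the array labelled VEGF, and it is not known here whether either reads the transgene. All directions below follow the label, and a ratio above 1 means a higher signal with that label. With 1 array per genotype there is no test between genotypes, so genes are described by a size rule of at least 2-fold. The error printed after ± is the SD expected of the log2 ratio from any 1 probe set, taken from 4887 genes with 2 or more detected probe sets. It was 0.50, 0.42 and 0.32 for genes of low, middle and high signal, and it leaves out the spread between animals, tumours and sorts. The signal of one probe set cannot be set against that of another, so genes are compared by their ratios.

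Of the 53 genes, 23 were above background on both arrays, 9 on a single array with a bound on the fold, and 3 on the array labelled VEGF alone with a signal too low for a bound. The other 18 were at or below background on both by the brightest probe set. Of all 18194 genes, 11234 were above background on both arrays and 4979 on neither. Of the 84 probe sets of the set, 41.7% were above background in wild type and 51.2% with the VEGF label. The shares over all probe sets naming 1 gene were 58.3% and 65.2%. In bulk RNA, fewer cells of a type and less RNA per cell cannot be told apart. Among the 32 genes with a fold or bound, 5 were at least 2-fold higher on the array labelled VEGF and 7 were lower to that extent, against 3.87% higher and 8.53% lower among all 12199 genes so measured. The background of the wild-type array was the higher, so that by construction every bound on the lower side came out larger than under an equal background. With 19.8 as the floor on both arrays 5 genes were higher and 3 lower, against 3.87% and 5.12% of all genes. Among the 23 genes above background on both arrays, 4 were higher and 3 lower by that rule, against 3.43% and 6.66% of all such genes. Of the 32 genes, 13 had a ratio above 0, against 47.1% of all genes. The median log2 ratio was -0.41 over the 32 genes and -0.04 over all genes, and the sign of the former turned with 2 of the other settings: it was 0.03 with an offset of 50 added to the signals and 0.14 among genes well above background.

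**Figure D1:**
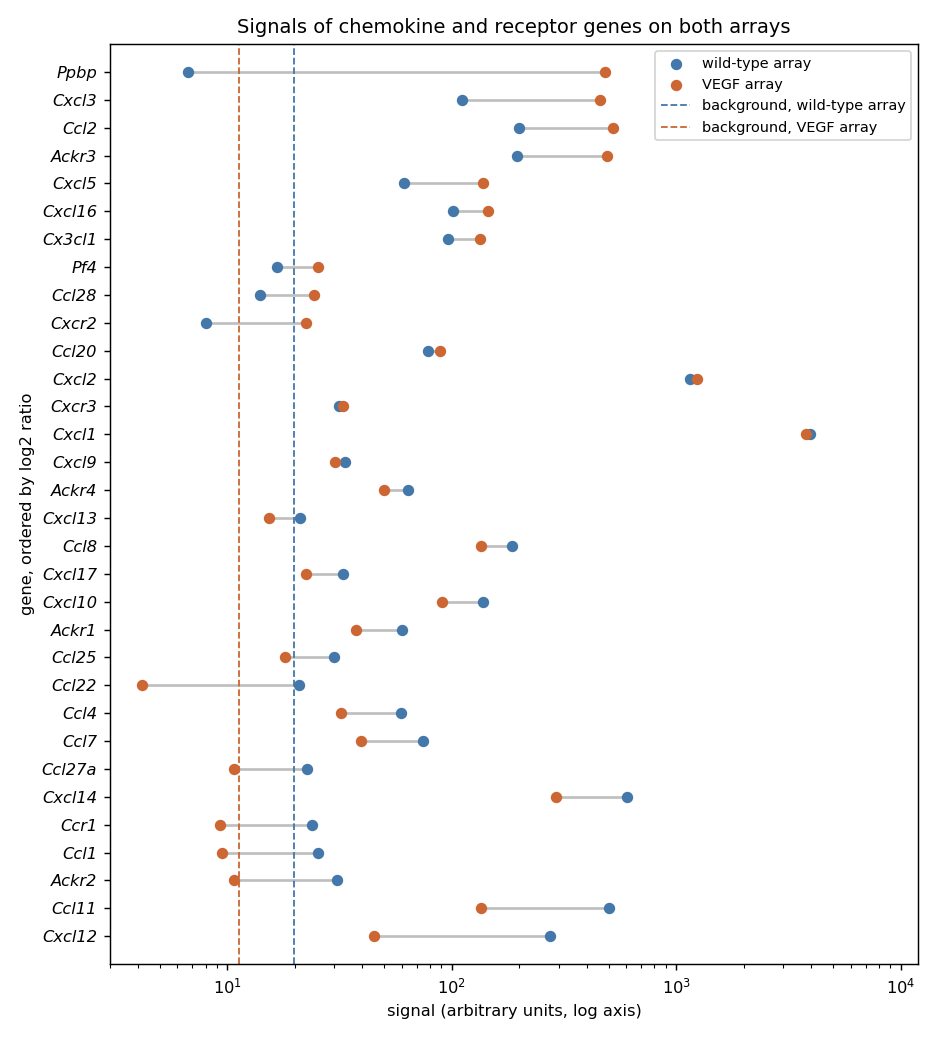
Signals of the 32 genes with a fold or bound for wild type (blue) and the array labelled VEGF (orange), on a log axis, 1 array each, with dashed lines at the background levels of 19.8 and 11.3. Ppbp spans the widest gap, from 6.71 to 480.3, while Cxcl1 and Cxcl2 lie almost at the same signal on both arrays.

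The ligands that attract neutrophils were split between large differences and near equality. Ppbp, which encodes the precursor of neutrophil-activating peptide and is known chiefly from platelets, had a signal of 6.71 in wild type and 480.3 with the VEGF label. It was below background in wild type, so that the fold is a bound, at least 24.2-fold higher, which ranked first of all 12199 genes. It was read by a single probe set. Cxcl3 had signals of 110.6 and 460 and was 4.16-fold higher (log2 ratio 2.06 ± 0.32), in position 63 from the highest. Cxcl5, an epithelial neutrophil attractant, had signals of 61.1 and 138 and was 2.27-fold higher (1.18 ± 0.42). Cxcl3 and Cxcl5 were also read by a single probe set each.

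Cxcl1 and Cxcl2, the classical keratinocyte ligands of Cxcr2, were strongly expressed on both arrays without such a difference. Cxcl1 had signals of 3943 and 3798 (log2 ratio -0.05 ± 0.32), and its other probe sets gave 0.02 and -0.55. Cxcl2 had signals of 1149 and 1234 (0.10 ± 0.32). The largest of these differences, -0.55, came from a probe set whose name marks possible cross-binding, as does that of the brightest Cxcl1 probe set. The unmarked one gave 0.02. Cxcl15, a lung ligand, was at or below background on both arrays. Cxcr2, the receptor of this group, was close to background, with signals of 8.03 and 22.5, which allows only a bound of 1.14-fold.

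These ligands lie next to each other. The RefSeq table (GRCm38.p6) gives 7 consecutive protein-coding genes on chromosome 5 in the order Cxcl5, Ppbp, Pf4, Cxcl3, Cxcl15, Cxcl1 and Cxcl2, all of them members of the set. The 3 genes at least 2-fold higher were among the first 4 in this order. Pf4, which encodes the platelet chemokine known as platelet factor 4, lies between Ppbp and Cxcl3 and had signals of 16.7 and 25.3, a bound of 1.28-fold.

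**Figure D2:**
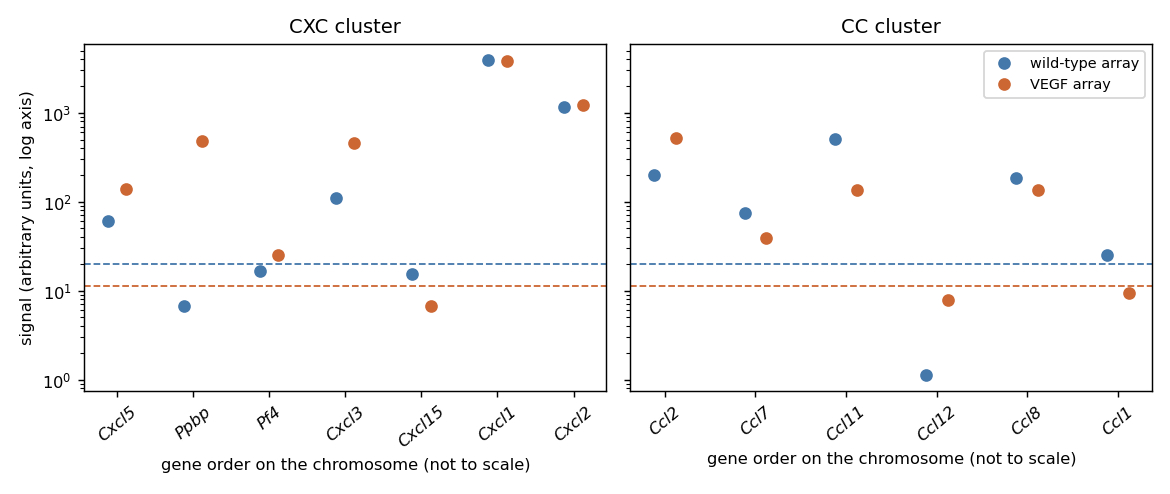
Signals on a log axis of the genes in 2 chemokine clusters, in their order on the chromosome and not to scale, for the wild-type array (blue) and the array labelled VEGF (orange), 1 array each, with dashed lines at background. In the CXC cluster Cxcl5, Ppbp and Cxcl3 are higher on the array labelled VEGF while Cxcl1 and Cxcl2 are nearly equal, and in the CC cluster Ccl2 is higher (522 against 200.0) while its neighbours Ccl7 and Ccl11 are lower.

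The remaining CXC ligands included the lowest ratio of the set. Cxcl12, the ligand of Cxcr4 and Ackr3 that retains stem and immune cells in their niches, had signals of 273 in wild type and 45.0 with the VEGF label. It was 6.07-fold lower (log2 ratio -2.60 ± 0.42), in position 17 from the lowest of all 12199 genes. A further Cxcl12 probe set was lower too, by a smaller amount, with signals of 81.0 and 29.5 (2.75-fold lower), and the last was below background on both arrays. With the median over its probe sets the Cxcl12 log2 ratio was -1.46.

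Cxcl14, a ligand made by resting epidermis, had signals of 607 and 292 and was 2.08-fold lower (-1.05 ± 0.32). Its other probe set gave 263 and 105, or 2.51-fold lower. With an offset of 50 the ratio was under 2-fold (log2 ratio -0.60). Both Cxcl14 probe sets thus lay on the same side.

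The interferon-induced ligands Cxcl9 and Cxcl10, which bind Cxcr3 on T cells, were not 2-fold apart. Cxcl10 had signals of 138 and 90.1 (-0.61 ± 0.42) and Cxcl9 of 33.4 and 30.2 (-0.14 ± 0.50). Cxcl11, their relative, listed in RefSeq as a transcribed pseudogene of the reference strain, was at or below background by its brighter probe set (12.6 and 7.58). Cxcl16, a membrane-anchored ligand of Cxcr6, had signals of 101 and 144 (0.52 ± 0.42), and its other probe set gave 0.45. The mucosal ligand Cxcl17 (32.8 and 22.4) and the B cell attractant Cxcl13 (21.1 and 15.3) were near background. Of the 9 measured genes of this group, 8 had a fold or bound, 2 of them (25.0%) with a ratio above 0, against 47.1% of all genes.

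Of the inflammatory CC ligands, which draw monocytes, eosinophils and T cells, Ccl2 went against the rest. Ccl2, the main monocyte attractant and the ligand of Ccr2, had signals of 200.0 and 522 and was 2.61-fold higher (1.38 ± 0.32). Ccl11, which encodes the eosinophil attractant eotaxin, had signals of 504 and 135 and was 3.74-fold lower (-1.90 ± 0.32), in position 105 from the lowest. Both Ccl2 and Ccl11 were read by a single probe set. The related monocyte attractant Ccl7 had signals of 74.8 and 39.5 (-0.92 ± 0.50). Ccl8, which in mice acts on Ccr8, had 186 and 135 (-0.47 ± 0.42), and Ccl4, a macrophage inflammatory protein, had 59.3 and 32.0 (-0.89 ± 0.50). These 3 were lower and under 2-fold. Ccl1, another Ccr8 ligand, was above background on the wild-type array alone (25.3 against 9.43), at least 2.23-fold lower, and its log2 bound was -0.35 with the common floor. Thus 1 of the 6 genes of this group with a fold or bound had a ratio above 0.

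Ccl2, Ccl7, Ccl11, Ccl12, Ccl8 and Ccl1 are 6 consecutive protein-coding genes on chromosome 11 in that order, so that the gene that was at least 2-fold higher and the gene that was 3.74-fold lower are separated by Ccl7 alone. Ccl12, a further Ccr2 ligand, was below background on both arrays (1.11 and 7.79). Ccl3, Ccl5, Ccl6 and Ccl24 were likewise at or below background, and Ccl9 stood at the background of the array labelled VEGF (11.4).

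CC ligands of skin, mucosa and lymphoid tissue had low signals. Ccl20, the epidermal ligand of Ccr6 that draws Langerhans cell precursors and Th17 cells, was the most nearly equal, with signals of 78.4 and 88.5 (0.17 ± 0.50). Ccl27a, which draws T cells to the skin through Ccr10, had signals of 22.7 and 10.7, at least 2.00-fold lower, and -0.19 on the log2 scale with the common floor. Its probe set is marked as prone to cross-binding, and a near-identical copy, Ccl27b, exists. Ccl22, a ligand of Ccr4, had signals of 21.0 and 4.15, the second below background, at least 1.85-fold lower, and -0.08 on the log2 scale with the common floor. Ccl25, a ligand of Ccr9, had 29.9 and 18.1 and was 1.66-fold lower by its brighter probe set. Its other probe set was not lower (12.95 and 14.6) and was below background in wild type. The 2 probe sets of Ccl28 above a background level disagreed: the brighter was below background in wild type and gave 24.4 with the VEGF label, the other 26.7 and 12.5, so no direction is given. Ccl17 had a signal of 1.57 in wild type and 11.6 with the VEGF label, at background. The membrane-bound Cx3cl1, or fractalkine, had signals of 95.8 and 133 (0.47 ± 0.42), and Xcl1 was below background on both arrays.

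**Figure D3:**
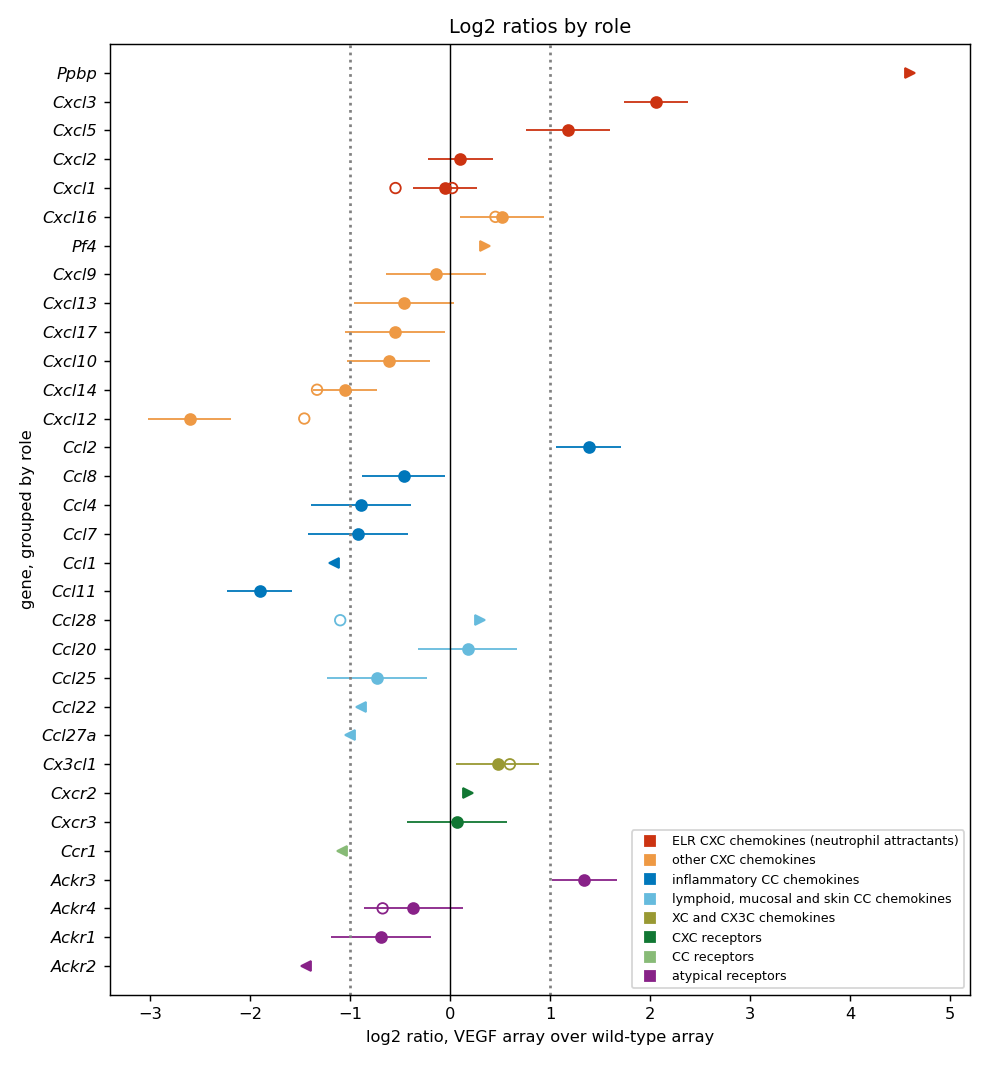
Log2 ratio, VEGF label against wild type, for the 32 genes with a fold or bound, coloured by role. Filled circles are the brightest probe set with ± 1 SD of a single probe set, triangles are bounds with no SD, open circles are other probe sets, and dotted lines mark 2-fold; Ppbp, Cxcl3, Ccl2, Ackr3 and Cxcl5 lie beyond the upper line.

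Most signalling receptors were not detected. Of 14 Ccr and Cxcr genes, 10 were at or below background on both arrays by the brightest probe set, against 4979 of all 18194 genes. Signals of these 10 genes ran from 1.42 to 9.60 in wild type and from 0.84 to 11.2 with the VEGF label. They included Cxcr4, the signalling receptor of Cxcl12 (2.20 and 8.97), and Ccr2, the receptor of Ccl2 (9.60 and 8.21). Another probe set of Ccr9, of a type prone to cross-binding, had 6.26 and 13.6, the second above background. Cxcr3 was above background on both arrays and nearly equal (31.4 and 32.9). Ccr1, a myeloid receptor, was above background on the wild-type array alone (23.9 and 9.27), at least 2.11-fold lower, and -0.27 on the log2 scale with the common floor. Ccr6, the receptor of Ccl20, had signals of 12.5 and 13.5.

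The atypical receptors were the better detected receptors, each above background on at least the wild-type array. Ackr3, which scavenges Cxcl12, had signals of 194 and 493 and was 2.53-fold higher (1.34 ± 0.32), so that the ligand was lower and its scavenging receptor higher on the array labelled VEGF. Ackr3 was read by a single probe set, whose name marks it as shared by several transcripts. Ackr1, a scavenger of both CC and CXC ligands, had signals of 60.2 and 37.3 (-0.69 ± 0.50). Ackr4, which scavenges Ccl19, Ccl21 and Ccl25, had 64.2 and 49.8 (-0.37 ± 0.50). Ackr2, which clears inflammatory CC ligands, had 30.8 and 10.8, at least 2.72-fold lower, or -0.64 on the log2 scale with the common floor, while another of its probe sets had 8.64 and 13.1.

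The call of a difference depended on the signal. Ppbp, Cxcl3, Ccl2, Ackr3 and Cxcl5 were at least 2-fold higher in every other setting that gave them a value, with log2 ratios of at least 3.58, 2.01, 1.33, 1.29 and 1.06. Ccl11 and Cxcl12 were at least 2-fold lower in all 10 settings, and Cxcl14 in 9. The bounds of Ackr2, Ccl1, Ccr1 and Ccl27a held in 5 of 8, 4 of 9, 3 of 8 and 2 of 8 settings with a value.

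**Figure D4:**
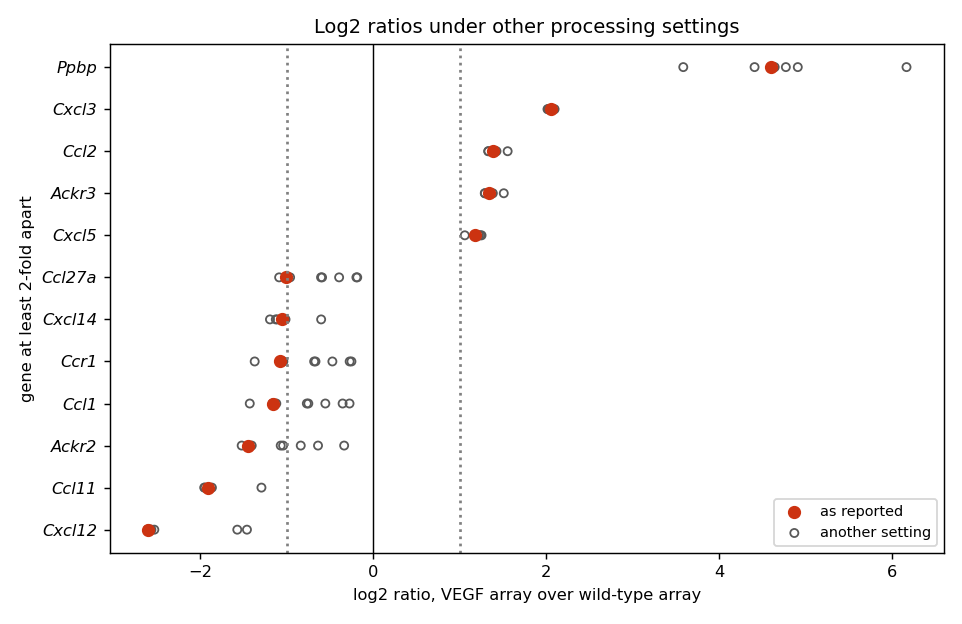
Log2 ratio of the 12 genes at least 2-fold apart as reported (red) and under the other processing settings (open circles), with dotted lines at 2-fold. The circles of Ackr2, Ccl1, Ccr1 and Ccl27a, whose signals on the array labelled VEGF were below background, spread across the lower line, while those of the 5 higher genes stay above the upper one.

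Of 70 gene names, aliases included, listed for chemokine signalling and its control outside the set, 64 were measured and 59 had a fold or bound. None of these was higher by 2-fold or more, against 3.87% of all genes. Lower by as much were 9 (15.3%, against 8.53% of all genes), or 7 with the common floor, against 5.12% of all genes, and the median log2 ratio was -0.28. Lower were Rgs1 (56.1 and 10.6, at least 4.95-fold) and Rgs2 (315 and 147, 2.14-fold), which shorten G protein signals of such receptors. With the common floor the log2 bound of Rgs1 was -1.50. Elmo1 (50.6 and 20.7, 2.45-fold), which links such receptors to Rac, was also lower. The matrix proteases Mmp2 (180 and 78.9, 2.28-fold) and Mmp12 (46.0 and 17.7, 2.60-fold), which can cleave chemokines, were lower as well. The transcription factor genes Cebpb (4298 and 1993, 2.16-fold) and Cebpd (530 and 218, 2.43-fold) complete the 7, and the bounds of Xcr1 and Arrb1, each at least 2.13-fold lower, were under 2-fold with the common floor.

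Genes of NF-κB control were not 2-fold apart. Rela, the activating subunit, had signals of 432 and 439, and Nfkbia, its inhibitor and target, 8533 and 6789. Tnfaip3, a target that restrains NF-κB, had 411 and 781 (log2 ratio 0.93). Zfp36, which promotes decay of chemokine mRNAs such as that of Cxcl1, had 3077 and 1594 (-0.95). The inducing cytokines went opposite ways, with 44.9 and 64.5 for Il1a and 86.4 and 48.4 for Il1b, and Tnf was nearly equal (130 and 123).

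Markers of other cell types were read beside these results. The sum of a list includes signals below background and weighs its brightest probe sets most, so it does not measure an amount of cells. Epithelial identity was clear, with all 9 keratinocyte markers above background on both arrays and a summed signal of 33319 and 28565. Of these markers Krt15 alone was at least 2-fold apart (2806 and 999, 2.81-fold lower). Cd34 had signals of 430 and 751. For Ppbp and Pf4, the 8 other platelet and megakaryocyte genes measured summed to 176 and 145, with 4 and 5 above background. Itga2b, Gp1bb, Gp6 and Treml1 were above it on both arrays, with log2 ratios of -0.81, -0.37, -0.47 and 0.19. Gp5 had nearly equal signals (16.0 and 15.2) and was above it with the VEGF label alone, because the background was lower there. Gp9, Clec1b and Itgb3 were below it on both arrays. The part of platelet RNA in the difference of Ppbp was not tested. For Cxcr2 and its ligands, the 9 other neutrophil genes summed to 661 and 805, with 3 and 6 above background. Within this list Ltf went from 8.45 to 375 and Lcn2 from 399 to 80.7, both genes that epithelia also express. The granule genes Elane, Camp and Mmp8 were below background on both arrays. Another granule gene, Mpo (23.8 and 13.4), was above it on both, as was Stfa2l1 (161 and 303). Ngp (18.1 and 13.2) and Csf3r (17.5 and 13.5) were above it with the VEGF label alone. The 11 macrophage and monocyte genes summed to 322 and 316, with 7 above background in wild type and 6 with the VEGF label. Of the 7 with a fold or bound, 3 had a ratio above 0 and 4 below. Cd68 had signals of 43.4 and 69.0, Cd14 of 81.7 and 126 and Lyz2 of 32.8 and 35.9. Lower were C1qb (33.3 and 15.1, 2.20-fold), Csf1r (47.8 and 27.1) and Fcgr1 (33.1 and 22.7). Adgre1 was above background in wild type alone (22.3 and 2.41, at least 1.97-fold lower). C1qa, C1qc, Itgam and Mrc1 were below background on both arrays.

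Fibroblasts and endothelium are known sources of Cxcl12, Ccl11 and Ccl2. The 10 fibroblast genes summed to 1282 and 2762, with 9 of 10 above background in wild type and all 10 with the VEGF label. The collagen genes Col1a1, Col1a2 and Col3a1 made up most of the difference, with Col1a2 2.91-fold and Col3a1 2.52-fold higher, and without these 3, a split chosen after seeing the data, the sums were 334 and 350. By single genes, 5 of the 10 had a ratio above 0 and 5 below. Lum and Pdgfra, which encodes the stained antigen CD140a (9.86 and 34.7), were the others above 0, and Pdgfrb, Dcn, Dpt, Fap and Thy1 (58.1 and 25.1) were below. The part of fibroblast RNA in the differences of Cxcl12, Ccl11 and Ccl2 was not tested. The 10 endothelial genes summed to 249 and 294, with 5 above background in wild type and 8 with the VEGF label. Cdh5, Kdr, Plvap, Egfl7 and Esam were above it on both arrays and Tek and Vwf on neither. Emcn (4.57 and 27.2) and Cldn5 (13.2 and 29.8) were above it with the VEGF label alone. Of the 8 endothelial genes with a fold or bound, 5 had a ratio above 0 and 3 below. Pecam1, which encodes CD31, had 3.07 and 22.0. Of 8 T and NK cell genes, Cd8a alone was above background, with 59.6 and 22.2, and the 7 others were below it on both arrays. The dendritic and Langerhans cell list summed to 417 and 337, with H2-Ab1, H2-Aa and Cd74 above background on both arrays and Cd207, Itgax, Cd209a and Flt3 on neither. These went different ways, with 168 and 58.5 for H2-Aa (2.86-fold lower), 137 and 194 for H2-Ab1 and 78.0 and 59.8 for Cd74. The B cell list summed to 17.6 and 17.8. In it Ms4a1 alone (14.8 and 16.4) was above background, and only with the VEGF label, where the background was lower. The mast cell list summed to 57.9 and 37.9. In it Kit was above background in wild type alone (27.0 and 8.14) and Cma1 with the VEGF label alone (2.63 and 13.2). The bound of Kit was at least 2.38-fold lower, or -0.45 on the log2 scale with the common floor. Ptprc, which encodes the leukocyte antigen CD45, had signals of 14.4 and 17.3.

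**Figure D5:**
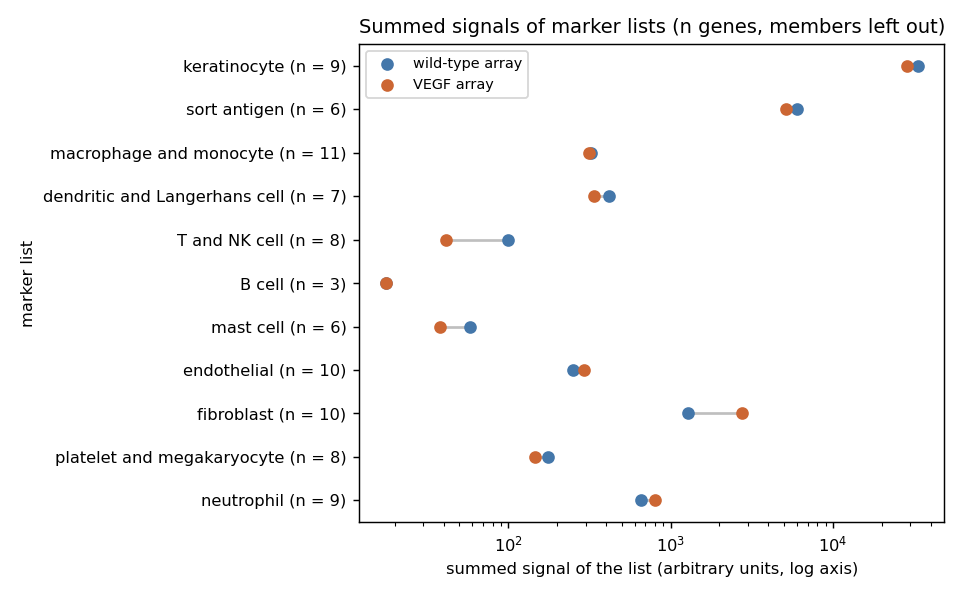
Summed signal on a log axis of each list of cell type markers for wild type (blue) and the array labelled VEGF (orange), 1 array each, with chemokine and receptor genes left out of the lists. The widest gaps are those of fibroblast genes (1282 and 2762, mostly collagens) and of T and NK cell genes (100.2 and 41.1). In the latter Cd8a alone (59.6 and 22.2) was above background, and the background itself was higher in wild type.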

How the data were processed

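The deposited table holds log2 signals for 45101 probe sets, and the submitters' processing notes name MAS5, which summarises each probe set on each array by itself. No version or scaling target is given in the sources used here; back on the linear scale, both arrays had a trimmed mean (2% off each end) of 100.04. The annotation named a single gene for 34958 probe sets, and the gene IDs of all 53 members were found in the GRCm38.p6 RefSeq table. The number of arrays, 1 per genotype, limits the precision, and no p-value was computed.

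Signals were floored at the 90th percentile of 80 olfactory and vomeronasal probe sets on each array. Each gene was read by the probe set brightest on average over both arrays (mean log2). A fold with 1 array at background is a bound against that floor, and genes at background on both arrays, or with a bound under 1-fold, got none. The error of a ratio is the SD of the difference between the 2 brightest probe sets of a gene, over the square root of 2, in 3 classes of signal.

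Tried as alternatives were 10 settings: each array's median as floor, a common floor, no floor (signals below 1 raised to 1, no background filter), an offset of 50 after matching medians, quantile and loess normalization (span 0.3), centred ratios, the median over probe sets, omitting the cross-binding types _x_at and _s_at, and a filter at 4 times background. The computation was tested on simulated data, in Python 3.11.15 with numpy 2.4.6, pandas 2.3.3 and statsmodels 0.14.6. All members at least 2-fold apart, above background on both arrays or with disagreeing probe sets were named, and of the pathway lists the genes at least 2-fold apart; the NF-κB genes and markers named beyond this were chosen after their values were seen. The members and lists were chosen with earlier results of these data known.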

Additional observations from a re-analysis of the deposited data

How the results depend on the processing

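Counts of lower genes depended on the treatment of low signals. The members at least 2-fold higher numbered 5 as reported, 11 with no floor and no background filter, 4 with the stricter signal filter, where Ppbp got no value, and 4 without _x_at and _s_at probe sets, where Ackr3 got none. The members at least 2-fold lower numbered 7 as reported, 3 with the array median as floor, 3 with the common floor, 14 with no floor, 2 with the offset of 50, 4 after quantile and 4 after loess normalization, and 3 with the stricter signal filter. A fold or bound was available for 32 members as reported, 53 with no floor or with the offset, by construction, and 14 with the stricter filter. The median log2 ratio of members, -0.41, was 0.028 with the offset and 0.14 with the stricter filter, so it has no settled sign. Over all genes, 472 were at least 2-fold higher as reported, 1675 with no floor and 297 with the stricter filter. The 1041 at least 2-fold lower became 624 with the common floor, 2770 with no floor, 83 with the offset, 596 after quantile and 571 after loess normalization, and 298 with the stricter filter. The cause of the shifts under quantile and loess normalization and the offset was not tested. The median over all genes was 0.11 with the offset, against -0.04 as reported. For single members, 260 of 291 ratios under other settings moved by less than the SD of a probe set, and 0 of the members at least 2-fold apart turned direction. Many of these ratios could not move, because a floor or filter leaves a gene well above background unchanged. All settings used the same 2 arrays. No paired analysis was possible because each genotype has 1 array. Signal over background limits the set, since only 14 of the 53 genes passed the stricter filter.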
